A study of Mus musculus with 61 samples.

Results

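The interferon response genes described here are 37 mouse genes that interferons are known to induce, followed through lacrimal and salivary glands of NOD mice, a strain that develops autoimmune inflammation of these glands. They were taken by gene symbol. Each gene was read from its probe set with a single symbol and the highest mean over the 61 arrays, and 35 of the 37 genes had one, out of 18194 genes measured in this way. Of these, 27 of 29 belong to the type I-like class, 7 of 7 to the GTPases that interferon-gamma induces most, and Irf1, which both kinds of interferon induce, was kept by itself. Isg15 and Ifi44 have no single-symbol probe set among those used, so they have no expression values here and enter the promoter counts only.

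The paper studied lacrimal glands of male NOD mice. It does not state separately the sex of the mice that gave the salivary samples. The authors state that males of this strain develop leukocyte infiltrates in essentially all lacrimal glands but rarely salivary gland disease. In each tissue untreated mice were sampled at week 8, week 12, week 14 and week 16 of age, and mice injected weekly from week 8 with LTBR-Ig (the fusion protein mLTBR-mIgG1, which carries the ligand-binding part of the lymphotoxin-beta receptor) or with MOPC-21, a control mouse IgG1, were sampled at week 12 and week 16, after 4 and 8 weeks of treatment. All groups hold 4 arrays except untreated lacrimal glands of week 12 (n = 3) and LTBR-Ig salivary glands of week 12 (n = 2), and the methods describe replicates as biological, with both lacrimal glands of a mouse combined. Salivary samples were the submandibular, salivary and parotid glands together. Whole glands were measured, so fewer cells of a type and less RNA per cell cannot be told apart.

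Interferons are secreted proteins that cells release on sensing viruses or nucleic acids, or, for interferon-gamma, that activated T cells and natural killer cells release. Type I interferons act through the receptor chains Ifnar1 and Ifnar2, the kinases Jak1 and Tyk2 and a factor that contains Stat2 and Irf9, which binds the interferon-stimulated response element (ISRE). Interferon-gamma acts through Ifngr1 and Ifngr2, Jak1 and Jak2, leads to binding at the gamma-activated site (GAS) and strongly induces Irf1 and the guanylate-binding and immunity-related GTPases, which attack vacuoles that hold pathogens. In lacrimal and salivary glands both kinds of response are known from the inflammation of Sjögren's syndrome, for which the NOD mouse serves as a model.

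The promoter stretches below are shown because they hold the letters of either or both elements in members on which the results turn. They are RefSeq sequence of the GRCm38.p6 build, which is not that of the NOD strain, and they run 5′ to 3′ on the gene's strand, each from within the 250 bases before the gene's start. Capitals mark matches, on either strand, to the ISRE core GAAANNGAA (read TTCNNTTTC on the other strand) or to the GAS pattern TTCNNNGAA, and adjoining capitals of the same element are overlapping matches.
Ifit1, type I-like, chr19:34640768-34640825, plus strand: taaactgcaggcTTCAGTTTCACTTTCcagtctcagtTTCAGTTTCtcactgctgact
Ifit3, type I-like, chr19:34583362-34583447, plus strand: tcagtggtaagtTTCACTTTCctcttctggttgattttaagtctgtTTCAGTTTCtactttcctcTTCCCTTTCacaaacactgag
Oas1a, type I-like, chr5:120907526-120907635, minus strand: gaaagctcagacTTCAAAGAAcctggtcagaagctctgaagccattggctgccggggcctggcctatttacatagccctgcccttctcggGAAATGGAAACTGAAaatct
Gbp2, GTPase, chr3:142620593-142620625, plus strand: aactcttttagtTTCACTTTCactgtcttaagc
Gbp7, GTPase, chr3:142530218-142530304, plus strand: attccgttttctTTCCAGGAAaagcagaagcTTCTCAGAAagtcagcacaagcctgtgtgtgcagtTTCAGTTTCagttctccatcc
Igtp, GTPase, chr11:58199499-58199542, plus strand: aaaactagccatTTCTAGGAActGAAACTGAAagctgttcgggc
Irgm1, GTPase, chr11:48871424-48871462, minus strand: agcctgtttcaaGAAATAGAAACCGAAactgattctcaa
Irf1, factor, chr11:53769912-53769944, plus strand: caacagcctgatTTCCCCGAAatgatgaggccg

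The ISRE core begins 109, 103 and 84 bases before the start of Ifit1 and 155, 121 and 102 bases before that of Ifit3. In Oas1a the GAS pattern begins at 98 bases and the overlapping ISRE cores at 20 and 14 bases before the start. Among the GTPases the ISRE core begins at 58 bases in Gbp2, at 52 in Gbp7, at 34 in Igtp and at 30 and 24 in Irgm1, and the GAS pattern at 106 and 87 in Gbp7 and at 45 in Igtp. Irf1 held a GAS pattern at 90 bases in 1 of its 2 promoters and no ISRE core. Promoters were at hand for 26 members, which have 31 promoters. The ISRE core was in 15 of these 31, against 7.13% of the 32851 promoters in the RefSeq table. By gene, with any promoter counted, it was in 15 of 26, 10 of 20 type I-like genes and 5 of 5 GTPases. The GAS pattern was in 7 of the 31, against 7.02% of all promoters. By gene it was in 7 of 26, which were 4 of 20 type I-like genes, 2 of 5 GTPases and Irf1. These matches describe letters and are not evidence of binding. Dhx58, Gbp6, Iigp1, Mx1, Mx2, Oas2, Parp14, Parp9, Rtp4, Usp18 and Zbp1 had no promoter in the table.

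All values below are the authors' GCRMA values, log2 brightness of a probe set after background correction and normalization over the whole set of arrays. The filter level was a log2 value of 4, which 37.3% to 41.4% of the probe sets of an array passed. A member was tested where 2 or more arrays of any group passed this level, and it was called where the fold reached 2 and the limma p, adjusted by Benjamini-Hochberg over all probe sets tested, was under 0.05. Thus 33 members were tested in lacrimal glands and 28 in salivary glands. Oas3 and Mx2 stayed below the filter in both tissues, and Zbp1, Ifit2, Oas2, Oasl1 and Mx1 in salivary glands. The number of arrays limits the precision. Pax6, which marks lacrimal epithelium, averaged 10.1 in untreated week 8 lacrimal glands, whereas Barx2, the other lacrimal marker listed, was at most 3.11 in any array. In 8 lacrimal arrays Amy1, which encodes salivary amylase, lay above a log2 value of 8, at 8.84 to 15.3. They are untreated replicate 2, MOPC-21 replicate 1 and LTBR-Ig replicates 1 and 2 of week 12, and untreated replicates 1 and 2 and LTBR-Ig replicates 3 and 4 of week 16. Counts are therefore also given without these arrays. Amy1 belongs to a list of 6 salivary epithelial markers, and some of the arrays kept were high in the mean over that list. In untreated replicate 1 of week 14 it was 8.60, against 4.70 to 4.99 in the lacrimal arrays of week 8.

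Between week 8 and week 16 the interferon response genes rose in untreated lacrimal glands. Of the 33 members tested, 31 were called higher and none lower, against 12.6% of all genes called higher in this comparison. Of the 27 measured type I-like genes 19 averaged above the filter level at week 8 and 25 at week 16. Members near background at week 8 could pass the filter through later groups and could hardly be called lower. All 7 GTPases and Irf1 averaged above the level at week 8. The 7 GTPases all rose, with a median log2 change of 4.24 (range 3.0 to 5.17), and 23 of 25 type I-like genes rose, with a median of 1.96, where the median over all 10121 genes tested was -0.08. Stat2 and Eif2ak2 were the members that were not called. The groups did not overlap for 31 members, the exceptions being Usp18 and Eif2ak2, and 24.5% of all genes tested were likewise higher without overlap. Without the arrays high in Amy1, 31 members were again called, with a median of 2.43.

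**Figure D1:**
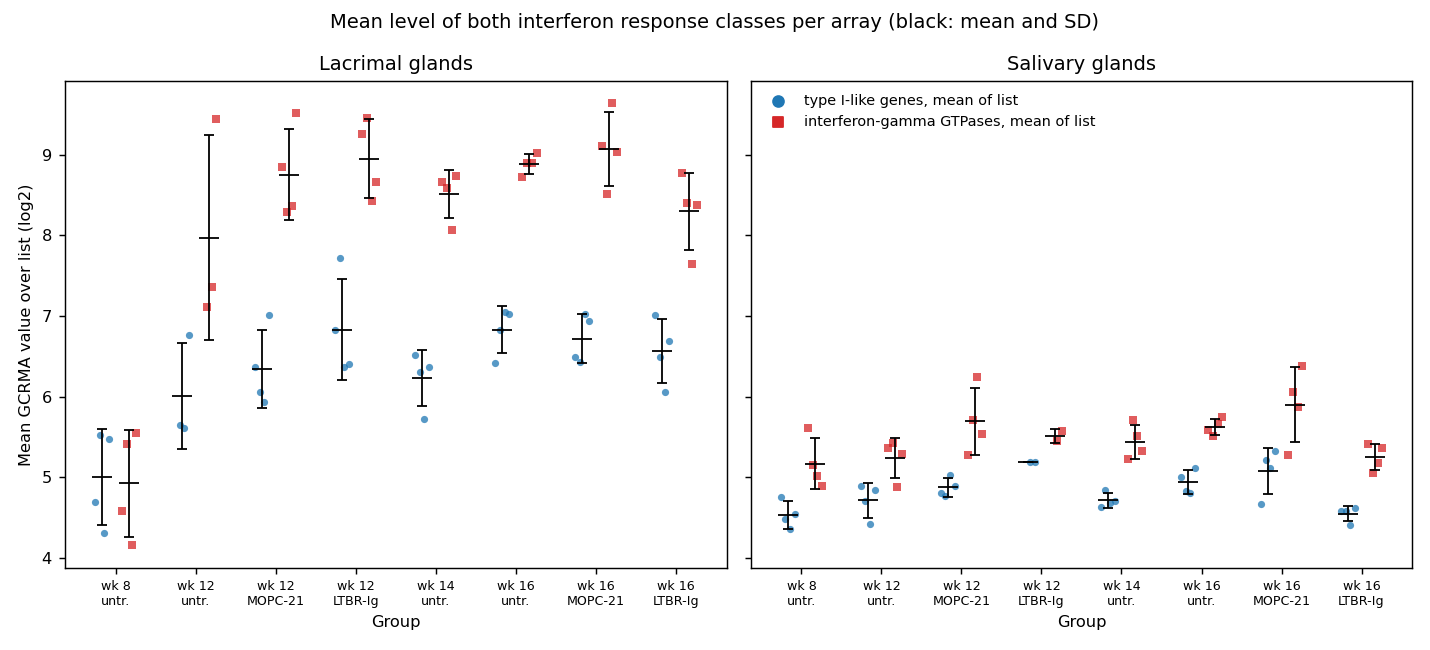
Mean GCRMA value (log2, vertical axis) over the 27 measured type I-like genes (blue circles) and over the 7 GTPases (red squares) in every array, by week and treatment, in lacrimal (left) and salivary glands (right), with the mean and SD of each group in black. In lacrimal glands the GTPase mean was 4.92 at week 8 and 8.89 in untreated mice at week 16, and in salivary glands 5.17 and 5.62.

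The plot of class means shows both classes by array. The type I-like mean was 5.0 ± 0.60 (SD, n = 4) in untreated lacrimal glands at week 8, 6.01 ± 0.66 (n = 3) at week 12, 6.23 ± 0.35 (n = 4) at week 14 and 6.83 ± 0.29 (n = 4) at week 16. The GTPase mean was 4.92 ± 0.67 at week 8, 7.97 ± 1.28 at week 12, 8.52 ± 0.30 at week 14 and 8.89 ± 0.12 at week 16. In both classes every week 8 array lay below every array of the later untreated groups, and from week 12 on successive untreated groups overlapped. Arrays of a group moved together across members. Untreated replicate 4 of week 12 was the highest of its group in 34 of the 35 measured members, replicate 3 of week 14 the lowest in 32 and replicate 3 of week 8 the lowest in 25.

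The ligands themselves were near background. Ifng, Ifnb1, Ifna1, Ifna2, Ifna4 and Ifna5 stayed below the filter in both tissues, and Ifng passed 4 in 1 of the 61 arrays, at 4.18 in MOPC-21 replicate 3 of lacrimal week 16. RNA levels near background say nothing of the proteins. Of 6 receptor chains tested, 3 rose by week 16. They were Ifnar1, a chain of the type I receptor, with a log2 change of 1.70, and both chains of the interferon-gamma receptor, Ifngr1 (2.21) and Ifngr2 (2.04). Jak2, the kinase of the interferon-gamma receptor, rose by 2.89 on the log2 scale (SE 0.24), while Jak1 and Tyk2 did not pass, at 0.81 and 0.31. Among sensors and adaptors 2 of 5 rose, Tlr7 (2.10) and Ddx58 (1.24), which detect RNA.

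The members that regulate the response differed among themselves. Irf1 stood at 4.71, 4.75, 3.67 and 5.12 in the 4 arrays of week 8 and at 8.09, 8.48, 8.80 and 8.92 in those of week 16. Every week 16 array was higher, and the log2 change was 4.01 (SE 0.36, limma adjusted p = 1.44e-09), a 16.1-fold rise. Irf7, which drives the production of type I interferons and is itself induced by them, was 3.63, 5.27, 3.42 and 4.77 at week 8 and 6.0, 6.69, 7.05 and 7.18 at week 16, groups that did not overlap. It rose by 2.46 on the log2 scale (SE 0.48, adjusted p = 0.000128). Irf9, the DNA-binding part of the type I factor, was 6.46, 7.12, 5.94 and 7.16 at week 8 and 7.62, 7.85, 7.76 and 8.06 at week 16, a rise of 1.16 (SE 0.23, adjusted p = 0.000188). Stat2, its partner, was 6.42, 7.11, 6.07 and 6.98 against 7.22, 7.35, 7.66 and 7.34, a log2 difference of 0.75 (SE 0.20, adjusted p = 0.00246) that missed the fold of 2. Of the other interferon factors 4 of 5 rose, Irf8 (3.0), Ciita (2.97), Irf5 (2.49) and Irf2 (1.32), and Irf3 stood at 0.06.

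Gbp2, a guanylate-binding protein, had the largest change of any member. It was 4.86, 5.99, 3.31 and 5.74 at week 8 and 9.93, 10.14, 10.27 and 10.25 at week 16. The lowest array of week 16 thus lay far above the highest of week 8, and the log2 change was 5.17 (SE 0.49, 95% CI 4.16 to 6.19, adjusted p = 4.58e-09), a 36.1-fold rise. Igtp, an immunity-related GTPase, was 4.43, 5.54, 4.12 and 5.90 at week 8 and 9.60, 9.71, 9.69 and 9.93 at week 16. It rose by 4.73 (SE 0.44, adjusted p = 3.17e-09). Iigp1, of the same family, stood at 4.01, 4.87, 4.10 and 4.42 and then at 8.53, 8.59, 8.42 and 8.82, again with no overlap, and rose by 4.24 (SE 0.32, adjusted p = 1.14e-10). Gbp6 rose by 4.25, Gbp7 by 3.32, Gbp3 by 3.03 and Irgm1 by 3.0. From a list of further GTPases of these families Gbp8 (4.63), Irgm2 (3.63) and Gbp2b (1.80) rose too, which is 3 of the 3 tested. Cxcl9, a chemokine that interferon-gamma induces, was 3.13 to 3.36 over the arrays of week 8 and 9.28 to 9.89 over those of week 16, a log2 change of 6.43. Cxcl10, its relative, rose by 3.50.

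**Figure D2:**
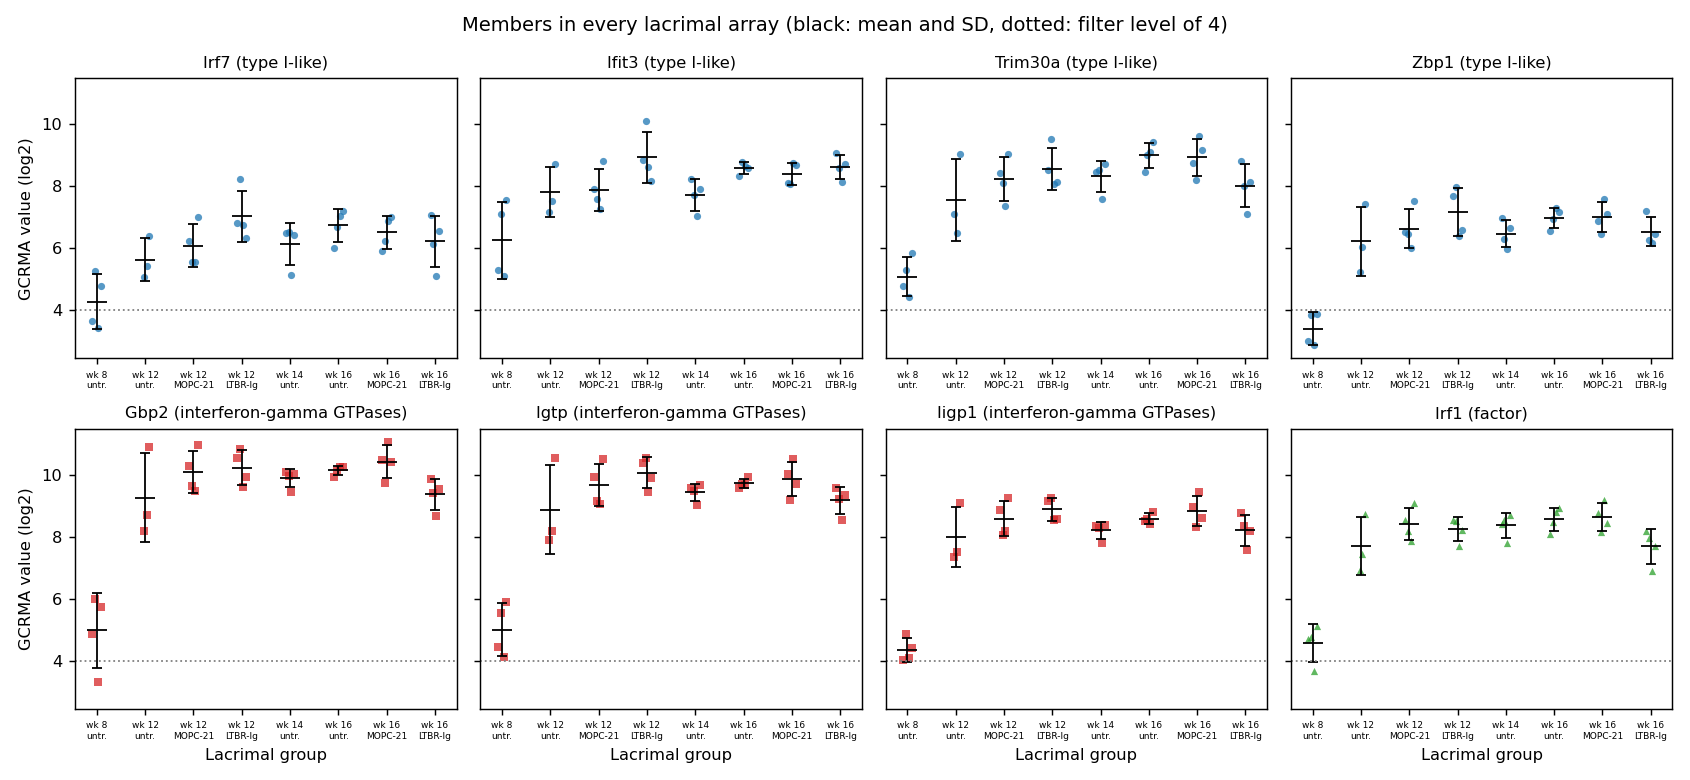
GCRMA value (log2, vertical axis) of 4 type I-like genes (Irf7, Ifit3, Trim30a, Zbp1), 3 GTPases (Gbp2, Igtp, Iigp1) and Irf1 in every lacrimal array, by week and treatment, with mean and SD of each group in black and the filter level of 4 dotted. Gbp2 lay at 3.31 to 5.99 in week 8 arrays and at 8.18 or above in all later arrays.

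Among type I-like effectors the largest changes were those of Trim30a, a tripartite motif protein, Zbp1, a sensor of Z-form nucleic acid, and Parp14, an ADP-ribosyltransferase. Trim30a was 4.76, 5.30, 4.41 and 5.84 at week 8 and 8.45, 9.0, 9.12 and 9.44 at week 16, a rise of 3.92 (SE 0.46, adjusted p = 1.56e-07). Zbp1 was 3.0, 3.85, 2.86 and 3.86 at week 8, below the filter level in every array, and 6.55, 6.94, 7.29 and 7.16 at week 16. It rose by 3.59 (SE 0.41, adjusted p = 7.68e-08), a value that rests on week 8 signals near background. Parp14 rose by 3.14 and its family member Parp9 by 2.24. The classical antiviral effectors followed with smaller changes. Mx1, a dynamin-like GTPase that blocks viruses, rose by 2.58, the tetratricopeptide proteins Ifit1, Ifit3 and Ifit2 by 2.35, 2.34 and 1.94, and the oligoadenylate synthetases and their relatives Oas1a, Oasl2, Oas2 and Oasl1 by 2.28, 2.24, 1.96 and 1.29. Ifit1, whose promoter stretch holds 3 ISRE cores, was 2.29, 3.91, 2.30 and 4.28 at week 8 and 5.26, 5.63, 5.69 and 5.58 at week 16, so the week 8 arrays were mostly below the filter level and none reached those of week 16. Bst2 (tetherin) rose by 2.0, Rtp4 by 1.97, Xaf1 by 1.92, Cmpk2 by 1.74, the RNA sensor Ifih1 by 1.67, Rsad2 (viperin) by 1.34, Dhx58 by 1.33 and Ifi35 by 1.28.

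Usp18 and Eif2ak2 stood apart from this order. Usp18, a protease that restrains type I receptor signalling, was 5.38, 6.84, 3.33 and 6.60 at week 8 and was called higher with 1.34 (SE 0.47, adjusted p = 0.0187), although its groups overlapped. Eif2ak2, a kinase that stops translation on sensing double-stranded RNA, was 5.44, 6.44, 5.27 and 6.55 at week 8 and 5.70, 6.14, 6.28 and 5.93 at week 16, with a log2 difference of 0.09 (95% CI -0.37 to 0.55, adjusted p = 0.76). Its other probe sets gave 0.25 and 0.46 and were not called either. Other probe sets of a gene also differed in call for Rsad2 (1.34 called, 0.79 not) and Rtp4 (1.97 called, 0.11 not). For Gbp2 both probe sets were called, at 5.17 and 5.01.

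Markers of leukocytes moved over the same weeks. Of the listed markers that passed the filter, 5 of 5 for B cells, 4 of 4 for T cells, 3 of 3 for natural killer and cytotoxic cells, 6 of 6 for macrophages and dendritic cells and 2 of 3 for plasmacytoid dendritic cells were called higher at week 16. The mean B cell marker level ranged from 3.08 to 3.97 in the week 8 arrays and from 8.16 to 9.04 at week 16, and the mean macrophage and dendritic cell level from 4.20 to 4.63 and from 6.38 to 7.36. The mean over the T cell list ranged from 2.94 to 2.99 and from 5.33 to 5.76, and 2 of its 6 measured markers stayed below the filter. Pax6, the lacrimal marker, moved the other way, from 9.99 to 10.35 over the week 8 arrays to 8.73 to 9.05 at week 16, and fell by 1.30 on the log2 scale (adjusted p = 2.05e-08). Of 6 genes listed as salivary epithelial markers 1 was called higher (Prol1, 3.28) and 1 lower (Mucl1, -5.10). This list is not restricted to salivary glands. In lacrimal glands of week 8, 2 of the 6 averaged above the filter level. Between the tissues at week 8, 4 of the 6 were called lower in lacrimal glands. The part of these cells in the rise of the members was not tested.

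By week 12 the GTPases had already risen, whereas most type I-like genes had not passed the test. Of 33 members 19 were called higher than at week 8, against 6.99% of all genes. They were all 7 GTPases (median log2 change 3.11), Irf1 and 11 of 25 type I-like genes (median over the class 1.11), and the median over all genes was -0.12. Gbp2 was 8.18, 8.72 and 10.90 in the 3 arrays of week 12, each above every week 8 array, and rose by 4.29 (SE 0.53). Igtp rose by 3.88, Iigp1 by 3.63 and Gbp6 by 3.11. Irf1, at 6.92, 7.45 and 8.74, rose by 3.14 (SE 0.38, adjusted p = 7.93e-07). The groups did not overlap for any of these genes. Over the members tested 15 were higher without overlap, against 14.2% of all genes. Members near background at week 8 are in these counts too, with the limit given above.

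The type I-like genes called at week 12 were Zbp1 (2.83), Trim30a (2.47), Parp14 (2.31), Ifit3 (1.55), Bst2 (1.48), Oas1a (1.38), Irf7 (1.35), Ifih1 (1.26), Parp9 (1.18), Rtp4 (1.17) and Xaf1 (1.12). Irf7 was 5.05, 5.43 and 6.40 at week 12, overlapped week 8 and passed narrowly (SE 0.52, adjusted p = 0.0419). Irf9 and Stat2 did not pass, with log2 differences of 0.63 (adjusted p = 0.0538) and 0.25 (adjusted p = 0.375). Mx1 and Ifit1, called at week 16, gave 1.02 and 0.93 here with adjusted p of 0.175 and 0.23. The count rested on single arrays, since it was 12 without untreated replicate 4 of week 12 and 12 without untreated replicate 3 of week 8. It was 20 without the arrays high in Amy1. Leukocyte markers had moved by then as well, with 5 of 5 for B cells, 3 of 4 for T cells, 2 of 3 for natural killer and cytotoxic cells, 4 of 6 for macrophages and dendritic cells and 2 of 3 for plasmacytoid dendritic cells called higher, and Pax6 fell by 1.0 (adjusted p = 8.68e-06). The mean B cell marker level was 6.36, 5.95 and 8.95 in the 3 arrays, highest in the replicate 4 that was also highest in the members. Their part in the members' changes was not tested. A change at week 12 was not tested against that at week 16, and both use the same week 8 arrays.

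In salivary glands of the same weeks the members moved little. Of 28 members tested 1 was called higher at week 16 than at week 8, Oasl2, against 3.98% of all genes. The log2 change was above 0 in 27 of 28 members, with a median of 0.52 (type I-like 0.52, GTPases 0.61, all genes -0.07), and 11 members had an adjusted p under 0.05, with a fold under 2 in all but Oasl2. Of all genes 38.1% had an adjusted p under 0.05, a share that counts both directions. The 11 members all lay above 0, and the share of all genes that were higher at this threshold was not taken. Oasl2, an oligoadenylate synthetase-like protein, was 5.18, 3.54, 4.01 and 4.15 at week 8 and 5.76, 5.48, 5.48 and 5.76 at week 16. Every week 16 array lay above all of week 8, and the log2 change was 1.40 (SE 0.31, adjusted p = 0.000987). Gbp2 was 6.82, 5.96, 6.13 and 5.57 and then 6.63, 6.99, 6.82 and 6.82, which overlapped, with a log2 difference of 0.69 (adjusted p = 0.0172). Irgm1 differed by 0.61 (adjusted p = 0.0296), Irf7 by 0.58 (0.07), Irf9 by 0.52 (0.0468), Stat2 by 0.17 and Irf1 by 0.09 (95% CI -0.35 to 0.52). The count rose to 5 without untreated replicate 1 of week 8, which was the highest of its group in 21 members, and to 3 without untreated replicate 2 of week 16. Of the other pathway genes, Irf8 (2.34) and Irgm2 (1.34) rose and Socs3, a feedback inhibitor, fell by 1.22. The B cell, T cell and plasmacytoid dendritic cell markers did not pass the filter in salivary glands. Of the leukocyte markers that did, Cd14, of the macrophage and dendritic cell list, was called higher (1.41, adjusted p = 1.23e-09), while the other 3 of that list lay below 0, from -0.82 to -0.14. Gzma, of the cytotoxic list, differed by 0.86 (adjusted p = 9.6e-05), under the fold of 2. Their part in the members' differences was not tested.

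**Figure D3:**
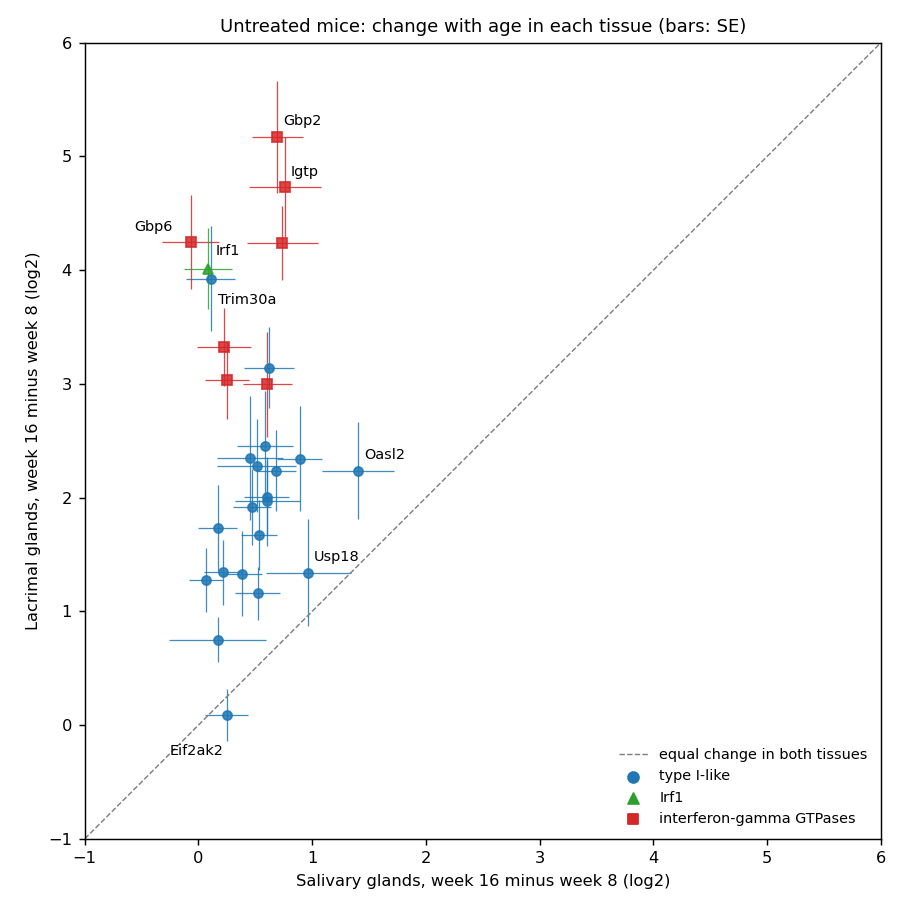
Log2 change from week 8 to week 16 in untreated mice, in salivary glands (horizontal axis) and lacrimal glands (vertical axis), for the 28 members tested in both, with SE bars, the 2 classes and Irf1 in different symbols, and a dashed line where both changes are equal. Gbp2, at 0.69 and 5.17, and Irf1, at 0.09 and 4.01, lie far above the line, and Eif2ak2, at 0.25 and 0.09, lies near it.

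The difference between the tissues was itself tested over all arrays. The change from week 8 to week 16 was larger in lacrimal than in salivary glands for 26 of 33 members, against 13.7% of all genes called higher in this contrast. These were the 7 GTPases (median difference of the log2 changes 3.50), Irf1 (3.92) and 18 of 25 type I-like genes (median over the class 1.45). The difference was 4.48 for Gbp2, 4.31 for Gbp6, 3.97 for Igtp and 3.50 for Iigp1, and among type I-like genes 3.82 for Trim30a, 3.65 for Zbp1, 2.52 for Parp14, 2.48 for Mx1, 2.19 for Oas2, 1.89 for Ifit1 and 1.87 for Irf7. Irf9 (0.64), Stat2 (0.58), Oasl2 (0.83) and Usp18 (0.37) were not called. Zbp1, Mx1, Oas2, Ifit2 and Oasl1 stayed below the filter in salivary glands and entered this fit through lacrimal arrays only. Their salivary changes are thus near background, and for them the contrast adds little to the lacrimal rise. The count was 28 without the lacrimal arrays high in Amy1.

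At week 8 the tissues differed in few members. Usp18 was 5.38, 6.84, 3.33 and 6.60 in lacrimal glands and 3.57, 2.95, 2.59 and 3.01 in salivary glands, where every array lay below the filter level, and it was higher in lacrimal glands by 2.50 on the log2 scale although lacrimal replicate 3 fell among the salivary arrays. Oasl2 (1.66), Oas1a (1.28) and Rtp4 (1.09) were also higher, so that 4 of 33 members were higher against 7.46% of all genes. Gbp2 alone was lower in lacrimal glands, by 1.15, against 13.6% of all genes called lower. The calls of Gbp2 and Rtp4 were lost with the median of a gene's probe sets, while those of Usp18, Oas1a and Oasl2 stayed. Irf1 was 3.67 to 5.12 in lacrimal and 5.23 to 5.61 in salivary glands, which did not overlap, but its difference of -0.86 (adjusted p = 0.0135) missed the fold of 2.

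After 8 weeks of LTBR-Ig none of the listed interferon response genes passed the test against MOPC-21 in lacrimal glands. Cxcl9 and Gbp8, which are outside the list, were called lower, as given below. Of 33 members none was called, against 5.52% of all genes called lower and 0.445% called higher, and 4 members (Irf1, Gbp3, Gbp7 and Gbp2) had an unadjusted p under 0.05, against 39.5% of all genes. All 7 GTPases had log2 differences below 0, from -1.06 to -0.62 with a median of -0.73, and the type I-like genes were split, with 15 below and 10 above 0 and a median of -0.19. Over all members the median was -0.40, and over all genes it was -0.03. Whether the classes differed from each other was not tested.

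Irf1 was 8.76, 8.17, 9.21 and 8.46 with MOPC-21 and 8.19, 7.95, 6.91 and 7.72 with LTBR-Ig. The groups overlapped by 1 array of each, and the log2 difference was -0.96 (SE 0.36, 95% CI -1.69 to -0.23, adjusted p = 0.0523). Gbp3 was 7.87, 7.54, 8.67 and 7.88 with MOPC-21 and 7.54, 7.03, 6.54 and 7.26 with LTBR-Ig, without overlap before rounding, a difference of -0.90 (95% CI -1.59 to -0.21, adjusted p = 0.0538). Both genes missed the threshold narrowly, and both were called lower without LTBR-Ig replicate 1 and without MOPC-21 replicate 2. Gbp2 differed by -1.06 (95% CI -2.07 to -0.04, adjusted p = 0.113) and Gbp7 by -0.80 (adjusted p = 0.0878). These intervals allow a fall of over 2-fold as well as almost none.

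**Figure D4:**
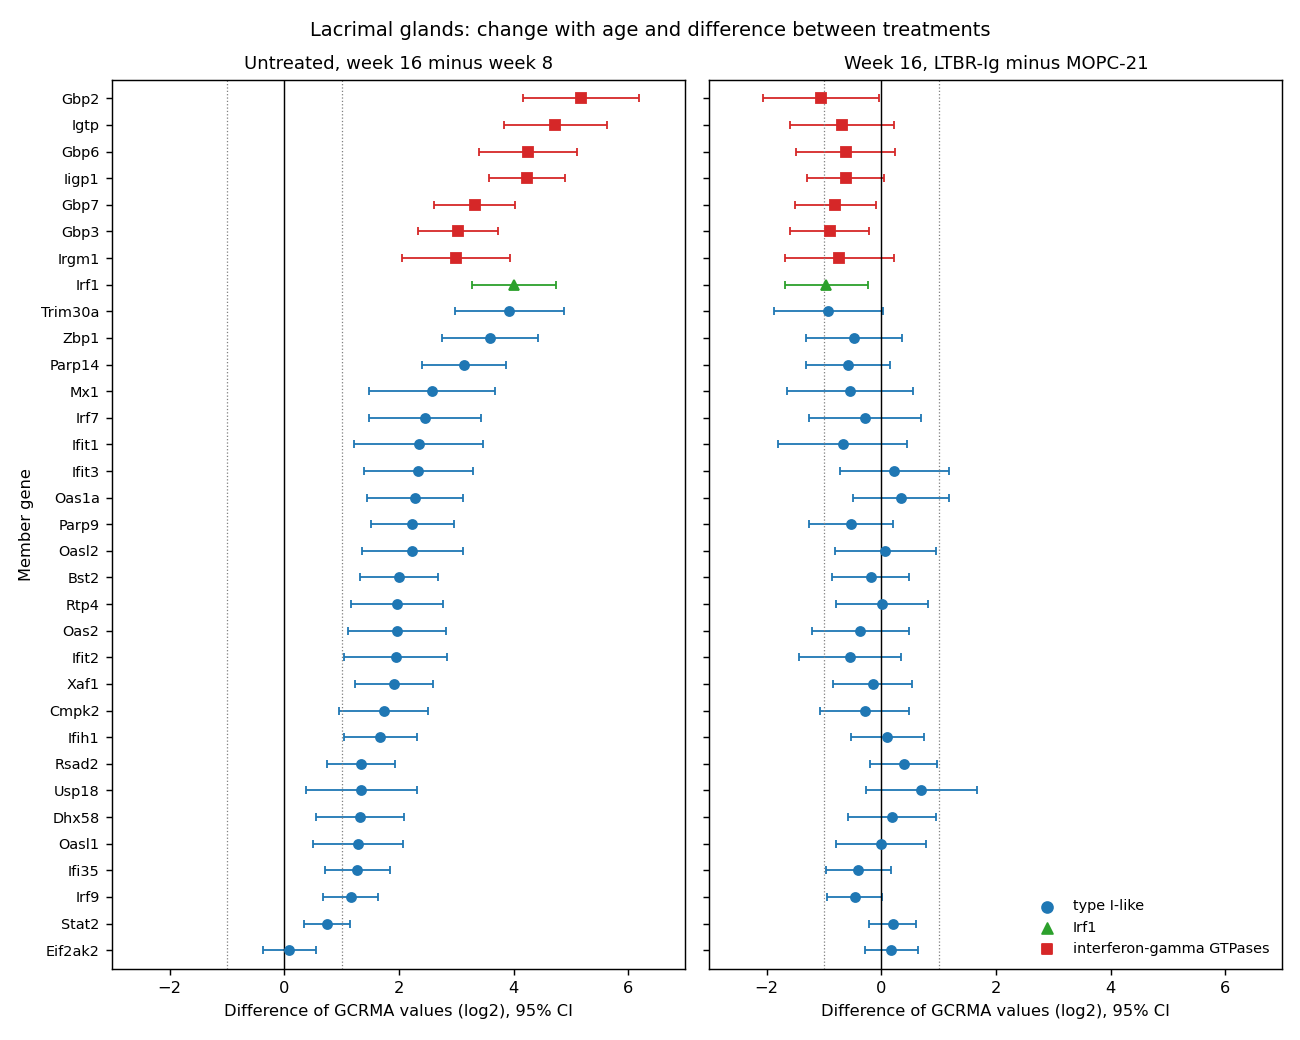
Log2 difference with 95% confidence interval for each of the 33 members tested in lacrimal glands, for untreated week 16 minus week 8 (left) and for LTBR-Ig minus MOPC-21 at week 16 (right), with GTPases as red squares, Irf1 as a green triangle and type I-like genes as blue circles, and dotted lines at a fold of 2. On the left 31 members are called higher and on the right none is called, with all 7 GTPases below 0.

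Type I-like genes varied in both directions between the treatments. Irf7 was 5.91, 6.22, 6.89 and 7.02 with MOPC-21 and 7.07, 6.15, 5.11 and 6.55 with LTBR-Ig, with a difference of -0.29 (95% CI -1.27 to 0.69, adjusted p = 0.672). Its highest and lowest arrays were thus both LTBR-Ig arrays, and LTBR-Ig replicate 1 was the highest of its group in 30 of 35 members and replicate 3 the lowest in 32. Trim30a differed by -0.92 (adjusted p = 0.141) and Irf9 by -0.47 (adjusted p = 0.138). Stat2 was 7.21, 7.01, 7.33 and 7.27 with MOPC-21 and 7.50, 7.34, 7.33 and 7.42 with LTBR-Ig, without overlap before rounding, with a difference of 0.20 (95% CI -0.21 to 0.60). Usp18 was 6.30, 6.80, 6.37 and 6.83 with MOPC-21 and 7.48, 7.25, 6.93 and 7.43 with LTBR-Ig, again without overlap. Its difference was 0.70 (95% CI -0.27 to 1.67, adjusted p = 0.273).

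Other genes of the pathway and leukocyte markers were lower with LTBR-Ig. Ifngr1 was 7.11, 6.58, 7.50 and 6.78 with MOPC-21 and 6.68, 5.76, 5.34 and 5.61 with LTBR-Ig and fell by 1.14 on the log2 scale (SE 0.28, adjusted p = 0.0104), which made it 1 of 6 receptor chains to do so. Irf8 (-1.27), Ciita (-1.27) and Irf5 (-1.15) were called lower as well. So were Cxcl9 (-1.22, limma adjusted p = 0.0487) and Gbp8 (-1.06, limma adjusted p = 0.05 after rounding), both narrowly. Ifnar1 differed by -0.79 (adjusted p = 0.0642). Of markers tested, 5 of 5 for B cells (median -2.21), 4 of 4 for T cells, 3 of 3 for natural killer and cytotoxic cells, 2 of 6 for macrophages and dendritic cells and 1 of 3 for plasmacytoid dendritic cells were lower. The mean B cell marker level ranged from 5.04 to 7.73 with LTBR-Ig and from 7.71 to 9.68 with MOPC-21. Their part in the members' differences was not tested. Epithelial markers had the opposite sign. Of the 6 genes listed as salivary epithelial markers, not all of which set the tissues apart at week 8, 4 were called higher with LTBR-Ig. All 6 lay above 0, with a median of 5.33. Pax6 differed by 0.49 (limma adjusted p = 0.0163), under the fold of 2. Amy1 was above 8 in 2 LTBR-Ig arrays and in none of MOPC-21. The part of these markers in the members' differences was not tested either. Without the arrays high in Amy1 no member was called and the median over all members was -0.19 in place of -0.40. That fit kept LTBR-Ig replicates 1 and 2 only. Their mean over the salivary epithelial list was still 8.72 and 7.26, against 3.53 to 5.88 with MOPC-21.

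Against untreated mice of week 16, LTBR-Ig gave a like picture from the same LTBR-Ig arrays. None of 33 members was called, against 3.72% of all genes called lower and 0.267% higher, and 3 had an unadjusted p under 0.05, against 29.8% of all genes. The median was -0.46, with all 7 GTPases below 0. Irf1 differed by -0.88 (adjusted p = 0.101), Trim30a by -0.99 (0.154), Gbp3 by -0.66 (0.185) and Gbp7 by -0.56. Outside the members, Cxcl9 and Gbp8 were not called here. The smallest limma adjusted p was 0.121 among the chemokines and 0.118 among the further GTPases. Gbp2, Gbp3, Igtp, Irgm1 and Parp9 were lower in every LTBR-Ig array than in any untreated array, as were 13.2% of all genes. Between MOPC-21 and untreated mice limma called no member, with 0.0% of all genes called in either direction, and 0 members had an unadjusted p under 0.05, against 1.94% of all genes. The median difference there was -0.07. Oas2 differed by -0.43, Iigp1 by 0.24 and Gbp3 by 0.24, each with an adjusted p of 1.

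Even under LTBR-Ig the members were above their level at the start of treatment. In LTBR-Ig lacrimal glands of week 16, 29 of 33 members were called higher than in untreated glands of week 8, against 7.34% of all genes, with a median of 1.77. All 7 GTPases (median 3.68), Irf1 (3.13) and 21 of 25 type I-like genes (median over the class 1.63) were among them. Gbp2 was 9.88, 9.40, 8.68 and 9.54 under LTBR-Ig and was higher by 4.40, Igtp by 4.18, Iigp1 by 3.86 and Gbp6 by 3.68. Zbp1 was higher by 3.13, Trim30a by 2.94, Parp14 by 2.62, Oas1a by 2.58, Ifit3 by 2.38, Oasl2 by 2.10 and Irf7 by 1.95. Irf9, Stat2, Ifi35 and Eif2ak2 were not called. Without the arrays high in Amy1 the count was 28. Members near background at week 8 carry the same limit here as in the untreated course.

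After 4 weeks of treatment the lacrimal differences mostly had the other sign. At week 12, 31 of 33 members had a log2 difference above 0 between LTBR-Ig and MOPC-21, with a median of 0.41 (type I-like 0.51, GTPases 0.20), but none was called, against 0.0198% of all genes called higher and 0.0395% lower, and 5 had an unadjusted p under 0.05, against 8.53% of all genes. Ifit3 was 7.90, 7.57, 7.25 and 8.82 with MOPC-21 and 8.85, 10.10, 8.62 and 8.16 with LTBR-Ig, groups that overlapped, and differed by 1.05 (adjusted p = 0.497). Irf7 differed by 0.95 (adjusted p = 0.584), Stat2 by 0.44, Irf9 by -0.06 and Irf1 by -0.17. LTBR-Ig replicate 2 was the highest of its group in 33 of 35 members and is high in Amy1. Without that array 20 of 33 members were above 0, with a median of 0.17, and without all arrays high in Amy1, 15 of 33 members were above 0 and the median was -0.03.

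In salivary glands the members were lower after 8 weeks of LTBR-Ig than with MOPC-21, but none passed the test. All 28 members tested had a log2 difference below 0, with a median of -0.61 against -0.01 over all genes, and 21 had an unadjusted p under 0.05, against 6.06% of all genes, while 0.0303% of all genes were called lower and 0.0% higher. Rtp4, a receptor transporter protein that type I interferon induces, was 6.28, 7.31, 7.35 and 7.40 with MOPC-21 and 5.57, 5.52, 5.79 and 5.92 with LTBR-Ig, groups that did not overlap. It differed by -1.38 (SE 0.29, 95% CI -1.97 to -0.79, adjusted p = 0.0665). Oasl2 was 5.25, 6.09, 6.07 and 6.25 with MOPC-21 and 4.52, 4.87, 4.25 and 4.52 with LTBR-Ig, also without overlap, and differed by -1.38 (adjusted p = 0.115). Usp18 differed by -1.39, Irf7 by -0.93 (adjusted p = 0.266), Iigp1 by -0.90 and Irgm1 by -0.79, and Irf1 by -0.04 (95% CI -0.47 to 0.40). Stat2, Ifit3, Rsad2, Cmpk2 and Bst2 also had no overlap, which made 7 members lower without overlap, against 4.53% of all genes.

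The class means place the salivary difference between untreated and treated groups. The type I-like mean was 4.55 ± 0.09 (SD, n = 4) with LTBR-Ig, 5.08 ± 0.29 with MOPC-21 and 4.94 ± 0.15 in untreated mice at week 16, and 4.53 ± 0.17 in untreated mice at week 8. MOPC-21 replicate 1 was the lowest of its group in 31 of 35 members, and without it 5 members (Usp18, Irf7, Oasl2, Rtp4 and Irgm1) were called lower. At week 12, with only 2 arrays, LTBR-Ig gave a type I-like mean of 5.19 in both, against 4.77 to 5.03 with MOPC-21, and this comparison was not tested. Rtp4 was then 7.98 and 7.77 with LTBR-Ig and 6.37 to 6.74 with MOPC-21. The mean over the salivary epithelial list was 14.8 and 14.0 in these LTBR-Ig arrays and 12.2 to 13.9 with MOPC-21. Its part in the members' values was not tested.

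**Figure D5:**
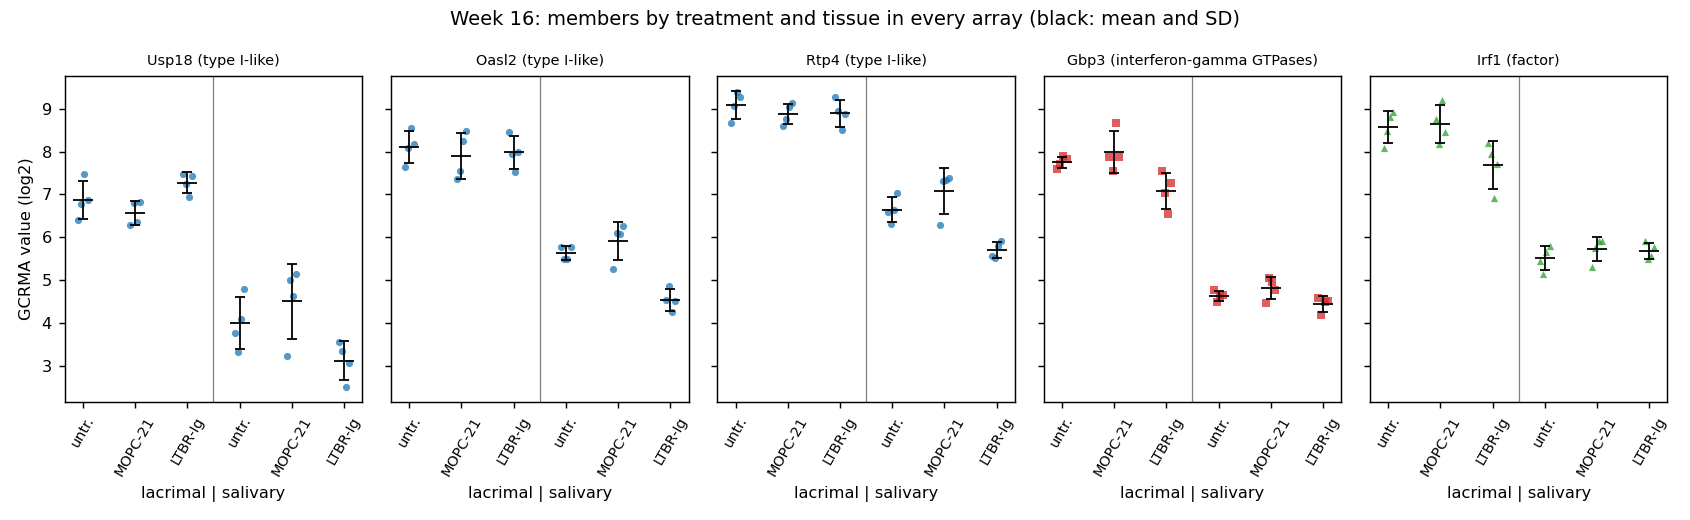
GCRMA value (log2, vertical axis) of Usp18, Oasl2, Rtp4, Gbp3 and Irf1 in every week 16 array by treatment, lacrimal glands to the left and salivary glands to the right of the grey line in each panel, with the mean and SD in black. Usp18 was higher with LTBR-Ig than with MOPC-21 in every lacrimal array, at 6.93 to 7.48 against 6.30 to 6.83, and in salivary glands lay at 2.50 to 3.55 against 3.23 to 5.15.

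The treatment difference was also compared between the tissues. Usp18 was the only member called, with a difference between tissues of 2.09 on the log2 scale (limma adjusted p = 0.0432), against 0.346% of all genes called higher and 2.51% lower. In salivary glands Usp18 was 3.23, 5.01, 4.63 and 5.15 with MOPC-21 and 3.55, 3.35, 2.50 and 3.06 with LTBR-Ig, so that 5 of these 8 arrays lay below the filter level. The call was narrow. It was lost in 12 of the 16 fits that left out 1 array, with the difference at 1.87 to 2.51 and the adjusted p at 0.0258 to 0.166, and also without the filter (adjusted p = 0.0834), without the lacrimal arrays high in Amy1 (2.18, adjusted p = 0.211) and with the posterior probability. Gbp3, Gbp2 and Irf1 did not pass, with Irf1 at -0.92 (adjusted p = 0.184).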

How the data were processed

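RNA of whole glands was labelled and hybridised to Affymetrix mouse genome arrays, 31 lacrimal and 30 salivary. The authors ran GCRMA (version not given), which corrects background and normalizes, on all arrays as 1 set and deposited a log2 value for each probe set, used here as deposited. Of the probe sets 34958 carried 1 gene symbol, 932 carried several and 9211 none, and only the first were named. No pair of arrays held identical values (0 pairs).

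Each tissue was fitted with limma 3.58.1 in R 4.3.3, with 1 mean per group and an intensity trend, over the 20077 lacrimal or 19617 salivary probe sets that passed a log2 value of 4 in 2 or more arrays of any group. Differences between tissues came from 1 fit of all 61 arrays (21626 probe sets). A call needed a fold of at least 2 together with an adjusted p (Benjamini-Hochberg, over all probe sets of the fit) under 0.05. The 12 comparisons share groups. Replicates are separate mice per the methods where these state it, and otherwise p-values measure the spread between samples.

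Array values were given for Irf7, Irf9, Irf1 and Stat2 and for members picked by size of change among those called, up to 6 type I-like genes and 4 GTPases in a comparison, or by smallest p (2 in a class) where none was called. Members, gene lists, filter and comparisons were chosen with earlier results of these data known. The pipeline was tested on simulated data. Alternatives were the posterior probability of the methods, other filters, centring and probe set rules, a replicate block and leaving out arrays. Promoters are from RefSeq, GRCm38.p6.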

Additional observations from a re-analysis of the deposited data

Results flagged for a closer look

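Single arrays stood apart from the rest of their group of 4 in 17 of 350 combinations of a named member or class mean and a group, where 1 in 20 would give 18. In lacrimal glands MOPC-21 replicate 4 of week 12 had Irf9 at 7.95, against 7.51 to 7.58. Untreated replicate 3 of week 14 was low in Irf7 (5.12, others 6.41 to 6.51), Gbp6 (7.10, others 7.93 to 8.06), Iigp1 (7.82, others 8.29 to 8.38) and Oas2 (3.64, others 4.36 to 4.39).

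In salivary glands untreated replicate 3 of week 12 had Oas2 at 3.65 (others 3.29 to 3.30) and Oasl2 at 3.93 (others 5.49 to 5.70). At week 14 untreated replicate 2 was high in Igtp (5.32, others 4.4 to 4.53) and Ifit3 (6.51, others 5.96 to 6.01), and replicate 3 was low in Oas1a (3.48, others 4.43 to 4.59). At week 16 untreated replicate 4 had Stat2 at 6.51 (others 5.85 to 5.95) and replicate 1 had Parp14 at 4.76 (others 5.19 to 5.23). MOPC-21 replicate 1 of week 16 was low in Irf7 (3.52, others 4.58 to 4.76), Irf9 (6.49, others 6.91 to 6.95) and Rtp4 (6.28, others 7.31 to 7.40), and replicate 4 was high in Bst2 (6.09, others 5.59 to 5.66). LTBR-Ig replicate 2 of week 16 had Parp14 at 4.99 (others 4.49 to 4.57).

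The change from week 8 to week 16 differed between the tissues by the test of that difference for 26 members, all larger in lacrimal glands. The differences of the log2 changes were 4.48 for Gbp2, 4.31 for Gbp6, 3.97 for Igtp, 3.92 for Irf1, 3.82 for Trim30a, 3.65 for Zbp1, 3.50 for Iigp1, 2.52 for Parp14, 2.48 for Mx1, 2.19 for Oas2, 1.89 for Ifit1 and 1.87 for Irf7. Of these Zbp1, Mx1 and Oas2 stayed below the filter in salivary glands. The effect of LTBR-Ig relative to MOPC-21 after 8 weeks differed between the tissues for 1 member, Usp18, by 2.09 (limma adjusted p = 0.0432), a call lost in 12 of the 16 fits that left out 1 array.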

How the results depend on the processing

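Counts of called members fell most with the posterior probability. With the posterior probability in place of the adjusted p, 16 members in place of 31 passed for untreated lacrimal week 16 against week 8, 9 in place of 19 for week 12, 12 in place of 29 for LTBR-Ig of week 16 against week 8, 0 in place of 1 in salivary glands, 1 in place of 5 between tissues at week 8, 10 in place of 26 for the difference in course between tissues and 0 in place of 1 for that in treatment. A filter level of 6 gave 27, 25 and 24 for lacrimal week 16 against week 8, LTBR-Ig of week 16 against week 8 and the course between tissues, with 29 members tested, and no filter gave 17 for week 12 and 26 for LTBR-Ig of week 16 against week 8. By adjusted p alone the salivary count was 11. With the median of a gene's probe sets, week 8 between tissues gave 3 and the treatment difference between tissues 2. With only the groups compared in the fit week 12 gave 14 in place of 19, the course between tissues 23, lacrimal week 16 against week 8 30 and LTBR-Ig of week 16 against week 8 28, week 8 between tissues and the treatment between tissues gave 3 and 3, and salivary LTBR-Ig against MOPC-21 gave 2. Without the filter, or without the lacrimal arrays high in Amy1, the treatment difference between tissues gave 0.

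The main fits did not pair samples by replicate number and treated all arrays as independent, also between tissues. Mice were killed before the glands were taken, so a mouse can recur only between tissues, not between weeks or treatments. Whether the same number in both tissues means the same mouse is not stated. Deviations from the group mean correlated at -0.49 to 0.49 between arrays of the same number, which cannot settle it. A replicate block changed 1 count, that of the treatment difference between tissues, from 1 to 2.

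Leaving out 1 array at a time gave 29 to 31 for lacrimal week 16 against week 8, 12 to 21 for week 12, 0 to 2 for week 16 LTBR-Ig against MOPC-21, 0 to 0 against untreated mice, for MOPC-21 against untreated mice and at week 12, 26 to 30 for LTBR-Ig of week 16 against week 8, 1 to 5 for salivary week 16 against week 8, 0 to 5 for salivary LTBR-Ig against MOPC-21, 4 to 7 between tissues at week 8, 23 to 27 for the course and 0 to 1 for the treatment between tissues.

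Some signs turned, with the cause not tested. In lacrimal week 12, LTBR-Ig minus MOPC-21, 31 of 33 members were above 0, 20 without LTBR-Ig replicate 2 and 15 without the arrays high in Amy1. Of the members named in each comparison, these turned. Stat2, LTBR-Ig minus untreated (0.01), was -0.012 with median centring, -0.078 with the median of probe sets and -0.077 without arrays high in Amy1. Without those arrays Irf7, LTBR-Ig minus MOPC-21, was 0.10 and Irf1, MOPC-21 minus untreated, was -0.21. Without single arrays the ranges that crossed 0 were, for LTBR-Ig minus MOPC-21, -0.14 to 0.041 for Irf9 and -0.36 to 0.049 for Irf1 in lacrimal week 12, -0.57 to 0.078 for Irf7 in lacrimal week 16 and -0.18 to 0.026 for Irf1 in salivary week 16. For MOPC-21 minus untreated they were -0.11 to 0.055 for Irf9 and -0.11 to 0.23 for Irf1. For Stat2 in LTBR-Ig minus untreated the range was -0.051 to 0.0952 and for Irf1 in salivary week 16 minus week 8 it was -0.0085 to 0.21.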
